A study of Mus musculus with 10 samples.

Results

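The aminoacyl-tRNA synthetases are the enzymes that attach each amino acid to its transfer RNAs, and their mRNAs were followed here in T cells that make IL-22. The 36 genes were taken by symbol, 20 for the cytosolic set and 16 for the mitochondrial set, out of 23393 genes in the table. All 36 were found, and all 36 passed the filter on low values. In cells with 1 copy of Riok2, 10 of the 20 cytosolic synthetases were lower and 0 were higher than in wild-type cells. Of the 16 mitochondrial synthetases, 2 fell and 3 rose. Over all tested genes 7.55% were lower and 9.58% higher. Among the more abundant genes, at a level that every cytosolic synthetase reached, 15.2% were lower. Under other settings of the analysis the cytosolic count of 10 became as low as 4.

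The cells were IL-22-producing helper T cells of 10-week-old C57BL/6 mice. WT mice were Riok2+/+ Vav1cre/+ Il22tdtomato/+, and Riok2hKO mice were Riok2f/+ Vav1cre/+ Il22tdtomato/+, so that mice of either group carried 1 copy of Cre and 1 copy of an Il22 reporter. Vav1-driven Cre acts throughout the blood lineages, so the floxed copy is lost well before a T cell becomes naive. Naive splenic CD4+ T cells were stimulated through CD3e and CD28 in IL-6 (30 ng/mL), with IL-23 and IL-1b at 20 ng/mL each, 400 nM of the aryl hydrocarbon receptor ligand FICZ and antibodies blocking IL-4 and IFN-g, and 5000 CD4+ tdTomato+ cells were sorted per library. There were 5 libraries of each genotype. Whether each library had its own mouse or culture is not stated in the labels, and a p-value here therefore reflects spread among libraries that may be technical.

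Cytosolic synthetases charge the tRNAs used by cytosolic ribosomes, and in animals some of them are held together with scaffold proteins in a multisynthetase complex while the others act free of it. Mitochondria import another set of synthetases, encoded in the nucleus, to translate the few proteins of the mitochondrial genome. A tRNA left without its amino acid is sensed by the kinase GCN2, which raises translation of the transcription factor ATF4, and many cytosolic synthetase genes are known targets of ATF4. Activated T cells make protein rapidly and raise these enzymes as they leave the resting state. Riok2 itself is an atypical kinase that acts at a late step in building the small ribosomal subunit.

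Values are TPM, a share of transcripts corrected for transcript length, and are given as mean ± SD of 5 libraries unless each library is listed. TPM keeps no read depth. Between 10269 and 10337 genes reached 1 TPM in each library. Riok2 measured 29.9, 29.1, 26.1, 27.2 and 29.1 TPM in the WT libraries and 14.5, 12.04, 13.4, 12.2 and 16.2 TPM in the Riok2hKO libraries, 48.25% of the WT mean (exact two-sided permutation p = 0.00794, the smallest that 252 assignments allow). Of 9 markers of CD4 T and Th22 cells, 8 had a mean of at least 1 TPM, Cd4 among them at 161 and 166 TPM, and Ahr stayed below 1 TPM in every library. The summed TPM of these 9 markers was 1630 to 1690 in WT and 2330 to 2700 in Riok2hKO, with Il22, Il17f and Il23r among those that rose. Cd3d (319 to 278 TPM, limma adjusted p = 0.000149) and Lck (551 to 503 TPM, limma adjusted p = 0.00192) fell. Of 6 CD8 T and NK cell markers 1 reached a mean of 1 TPM (Cd8b1, 18.0 and 12.7 TPM), of 5 B cell markers 1 did (Cd79b), and of 5 myeloid and erythroid markers 0 did. The sums were 18.1 to 20.7 against 12.3 to 15.2 TPM for CD8 T and NK cells, 1.67 to 3.09 against 1.16 to 2.35 for B cells and 0.16 to 1.22 against 0.26 to 0.92 for myeloid and erythroid cells, with Hbb-b1 at 0 in all 10 libraries. The part of other cells in the synthetase results was not tested.

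WT replicate 1 stood apart. In it 122 tested genes lay at least 1 log2 unit below the other WT libraries, against 6 to 20 in each of the other 9 libraries. Among synthetases, Yars2, Iars2 and Vars were low in that library, by 0.91, 0.90 and 0.79 log2 units against the mean of the other WT libraries. Lars2 was also at its lowest WT value there, by 0.29 log2 units. Fold changes and ratios of Yars2, Iars2 and Vars, and the fold change of Lars2, are given with and without that library.

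The cytosolic synthetases were abundant and closely held, and their change was small and mostly downward. In WT their means ran from 67.8 TPM (Cars) to 369.7 TPM (Gars). Their TPM summed to 3257, 3222, 3279, 3255 and 3248 in the WT libraries and to 2967, 3078, 3072, 3065 and 3156 in the Riok2hKO libraries, 94.3% of the WT mean, and the groups did not overlap. On the log2(TPM + 1) scale used for all fold changes, 18 of the 20 differences were negative, with a median of -0.097 and a range from -0.277 to 0.101. The median over all 10332 tested genes was -0.00597, and it was -0.0281 over the 2691 with a mean of 50 TPM or more, a level that every cytosolic synthetase reached.

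By limma with Benjamini-Hochberg adjustment over all tested genes, 10 of the 20 fell, 0 rose and 10 did not pass an adjusted p of 0.05. Over all tested genes 17.1% passed in either direction, 7.55% lower and 9.58% higher. Where the mean reached 50 TPM or more, 15.2% of genes fell and 8.84% rose. The groups stood apart without overlap, lower in Riok2hKO, for 10 of the 20, against 5.87% of all tested genes and 12.4% of those averaging 50 TPM or more. The count of 10 that fell became 5 without WT replicate 3 and 6 without Riok2hKO replicate 2, 3 or 4 in turn. In bulk RNA a smaller share of cells making an mRNA and less of it per cell cannot be told apart.

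**Figure D1:**
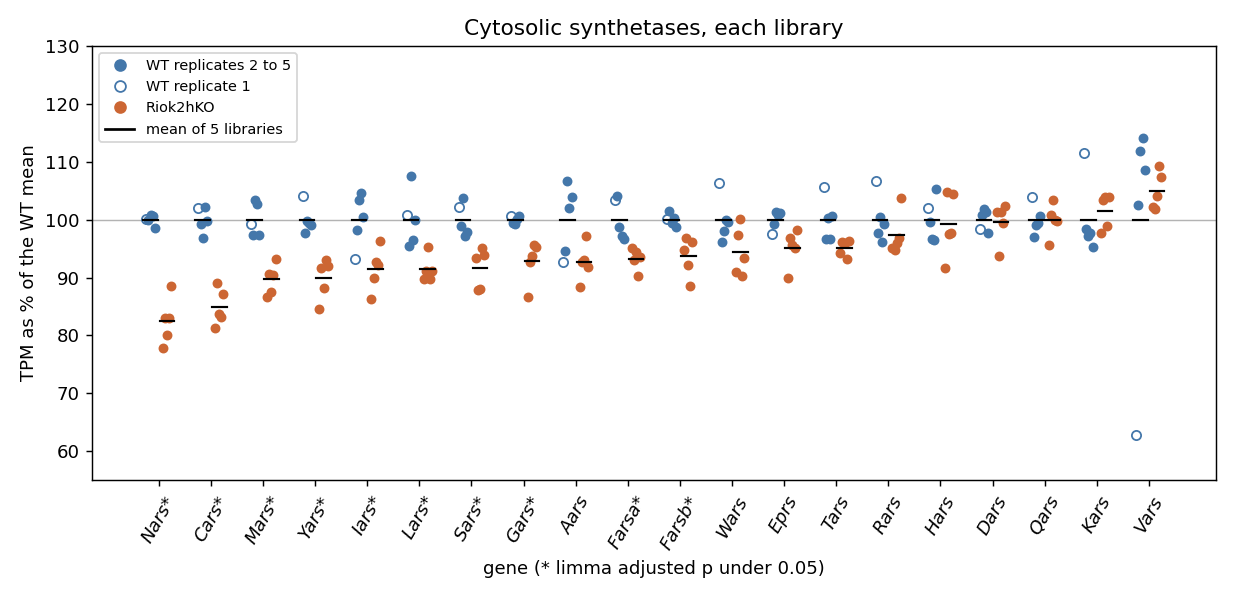
Level of each of the 20 cytosolic synthetases in each library, as a percentage of that gene's WT mean TPM, ordered by log2 fold change. Points are libraries (blue WT, open blue WT replicate 1, orange Riok2hKO), bars are means of 5, and stars mark an adjusted p under 0.05. Nars at 82.5% and Cars at 84.8% of WT lie lowest, and Vars shows WT replicate 1 far below every other library.

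Nars, which charges tRNA with asparagine, changed most among the cytosolic enzymes. It measured 280.3, 280.04, 282, 282 and 276 TPM in WT and 218, 233, 225, 233 and 248 TPM in Riok2hKO. Every Riok2hKO library lay below every WT library, and the mean fell from 280.2 ± 2.38 to 231 ± 11.3 TPM (limma adjusted p = 0.000204, log2 fold change -0.28, SE 0.0322). Nars lies on mm10 chromosome 18.

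Cars, the cysteine enzyme (mm10 chromosome 7, 143557230 to 143600090), was next. Its libraries read 69.2, 67.3, 65.7, 69.3 and 67.7 TPM in WT and 55.2, 60.4, 56.7, 56.4 and 59.1 TPM in Riok2hKO, again without overlap (log2 fold change -0.23, SE 0.0347, limma adjusted p = 0.00102). Among cytosolic synthetases Cars had the lowest level in either genotype.

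Yars, the tyrosine enzyme, and Mars, the methionine enzyme that also supplies the initiator tRNA, fell to 89.9% and 89.7% of WT. Yars (mm10 chromosome 4, 129189734 to 129219240) read 118, 111, 114, 113 and 113 TPM in WT and 96.1, 104, 100.4, 106 and 105 TPM in Riok2hKO (log2 fold change -0.15, SE 0.0335, limma adjusted p = 0.00896). Mars (chromosome 10, 127296221 to 127311786) read 157, 154, 164, 162 and 154 TPM in WT and 137, 143, 139, 143 and 148 TPM in Riok2hKO (log2 fold change -0.16, SE 0.0305, limma adjusted p = 0.00521). Neither gene's groups overlapped. Mars lies beside the stress gene Ddit3, and 1.03% of the 38-base words of its transcript also occur in a Ddit3 transcript. Ddit3 itself fell from 39.9 ± 5.31 to 26.4 ± 3.91 TPM (log2 fold change -0.58, limma adjusted p = 0.003). The part of shared reads in the Mars values was not tested.

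The glycine enzyme Gars and the lysine enzyme Kars each supply the cytosol and mitochondria from a single gene, and the 2 behaved differently. Gars (chromosome 6, 55038001 to 55079504), the most abundant cytosolic synthetase, read 372, 367, 367, 369.8 and 372 TPM in WT and 320.3, 343, 347, 353 and 352 TPM in Riok2hKO, and it fell (log2 fold change -0.11, SE 0.0279, limma adjusted p = 0.0200). Kars read 319, 282, 278, 279 and 272 TPM in WT and 279.7, 296, 297, 283 and 297 TPM in Riok2hKO, with WT replicate 1 the highest of all 10 libraries, and it did not pass (log2 fold change 0.02, limma adjusted p = 0.738). Without WT replicate 1 the Kars difference was 0.06 (limma adjusted p = 0.136). The difference between Gars and Kars was not tested.

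The serine enzyme Sars, the leucine enzyme Lars and the isoleucine enzyme Iars fell to between 91.4% and 91.7% of WT. Sars (chromosome 3, 108424864 to 108445259) read 153, 148, 155, 145 and 146 TPM in WT and 139.8, 131, 132, 142 and 141 TPM in Riok2hKO (log2 fold change -0.12, limma adjusted p = 0.0234). Lars read 80.8, 76.5, 86.2, 77.3 and 80.1 TPM in WT and 72.0, 73.1, 76.4, 72.0 and 73.1 TPM in Riok2hKO, groups that came within 1 TPM of each other (log2 fold change -0.13, limma adjusted p = 0.0369). Iars (chromosome 13, 49682130 to 49734267) read 110.2, 116, 122, 124 and 119 TPM in WT and 102, 106, 109.6, 109 and 114 TPM in Riok2hKO (log2 fold change -0.13, limma adjusted p = 0.0439). The Iars groups overlapped, and 13.7% of its 38-base words also occur in other genes, nearly all in the gene model Gm4849. These were narrow calls. The Sars call was lost without WT replicate 3 and without Riok2hKO replicates 2 and 3 in turn (adjusted p 0.0512 to 0.0589), the Lars call without WT replicates 1, 3 and 5 and Riok2hKO replicates 1, 2, 4 and 5 (0.0537 to 0.0835), and the Iars call without WT replicates 2 to 5 and Riok2hKO replicates 1 to 4 (0.0647 to 0.0960).

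Farsa and Farsb encode the catalytic and the other subunit of the cytosolic phenylalanine enzyme, the 1 cytosolic synthetase built from unlike chains, and they moved in step. Farsa (chromosome 8, 84856969 to 84869257) read 178, 179, 169.7, 167 and 166 TPM in WT and 164, 160.2, 162, 155 and 161 TPM in Riok2hKO (log2 fold change -0.10, limma adjusted p = 0.0388). Farsb (chromosome 1, 78417958 to 78488897) read 159, 161, 158, 159 and 157 TPM in WT and 150.1, 154, 146, 140.4 and 152 TPM in Riok2hKO (log2 fold change -0.09, limma adjusted p = 0.0455). The ratio of Farsa to Farsb was 1.08 ± 0.0302 in WT and 1.08 ± 0.0304 in Riok2hKO, so the balance of the subunit mRNAs was alike in the 2 genotypes. The Farsa call was lost without WT replicates 1 to 3 and Riok2hKO replicates 2 to 5 in turn (adjusted p 0.0524 to 0.0945). The Farsb call was lost without any of the WT libraries and without Riok2hKO replicates 1, 3 and 4 (0.0608 to 0.101). Of the 38-base words of Farsb, 10.7% also occur in its neighbour Sgpp2.

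The other 9 cytosolic synthetases did not pass. The alanine enzyme Aars was at 71.7 ± 4.35 TPM in WT and 66.5 ± 2.25 in Riok2hKO (limma adjusted p = 0.122, log2 fold change -0.11), and without WT replicate 1 it passed at -0.13 (limma adjusted p = 0.0460). It shares 22.6% of its 38-base words with the neighbouring Exosc6. The threonine enzyme Tars read 187, 171, 177, 171 and 178 TPM in WT and 167, 170.0, 169.8, 165 and 170.3 TPM in Riok2hKO, without overlap but with an adjusted p of 0.124 by limma. Eprs, which joins the glutamate and proline enzymes in 1 chain, measured 125.5 ± 2.001 and 119 ± 3.96 TPM, and the tryptophan enzyme Wars 111 ± 4.25 and 104 ± 4.63 TPM.

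The remaining 5 included Vars, whose value turned on 1 library. The enzymes for arginine, histidine, aspartate and glutamine were at 97.3% (Rars), 99.2% (Hars), 99.6% (Dars) and 99.9% (Qars) of WT, with limma adjusted p from 0.492 to 0.974. For Qars the 95% interval of the log2 fold change ran from -0.0673 to 0.0637. The valine enzyme Vars read 106, 173, 189, 192 and 183 TPM in WT and 172, 172, 175, 184 and 181 TPM in Riok2hKO, a difference of 0.10 with a 95% interval from -0.189 to 0.39 that the single low library widened. Without WT replicate 1 it was -0.06 (limma adjusted p = 0.312).

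Split by the multisynthetase complex, 3 of its 8 enzymes fell (Mars, Iars and Lars), with a median log2 fold change of -0.0554, and 7 of the 12 free enzymes fell, with a median of -0.104. Of all tested genes with a mean of 50 TPM or more, 15.2% fell. The summed TPM of the complex enzymes was 1207 ± 23.0 in WT and 1167 ± 26.4 in Riok2hKO, and that of the free enzymes 2045.5 ± 18.9 and 1901 ± 43.2. Leaving out 1 library moved these counts by more than 1.5 times in some cases. The complex count became 1 without WT replicate 3 or 5 or Riok2hKO replicate 1, 2 or 4, and the free count became 4 without WT replicate 3 or Riok2hKO replicate 3. The complex and free sets were not tested against each other. The 3 scaffold genes did not pass: Aimp1 was at 151 ± 3.72 and 147 ± 3.03 TPM, Aimp2 at 172 ± 8.32 and 169 ± 7.37, and Eef1e1 at 318.5 ± 9.36 and 311 ± 7.96 in WT and Riok2hKO.

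A list of 12 cytosolic synthetases reported to respond to ATF4 held most of the movement. Its members are Aars, Cars, Eprs, Gars, Iars, Lars, Mars, Nars, Sars, Tars, Wars and Yars. Of these, 8 fell, 0 rose and 4 did not pass, all 12 log2 fold changes were negative, and the median was -0.126. Among the 2691 tested genes with a mean of 50 TPM or more, 15.2% fell and 1656 had a negative log2 fold change. The TPM of the 12 summed to 1834, 1790, 1846, 1825 and 1818 in WT and to 1585, 1660, 1652, 1669 and 1702 in Riok2hKO, 90.7% of the WT mean. Among the other 8 cytosolic synthetases 2 fell, Farsa and Farsb, the median was -0.00935, and the sums overlapped, at 1423 to 1434 TPM in WT and 1382 to 1454 TPM in Riok2hKO. The count of 8 became 5 without WT replicate 3 or Riok2hKO replicate 2. The count of 2 became 0 without WT replicate 1, 2 or 3 or Riok2hKO replicate 3 or 4 and 1 without each of the other 5 libraries. The list was made with earlier results of these libraries known, and the difference between the lists was not tested.

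The composite C/EBP-ATF element, at which ATF4 is known to bind with a partner, has the core TGATGNAA, with N any base. This core was searched on both strands from 250 bases before to 50 bases after each RefSeq transcription start (GRCm38.p6, the mm10 assembly). It was present for 5 of the 12 cytosolic synthetases with a sequence (41.7%), all 5 in the ATF4-responsive list, of which 7 had one, and for 0 of 14 mitochondrial synthetases. Of all RefSeq genes 4.51% held it, and of the genes tested here with a promoter sequence 2.72%. The windows below show those matches, 60 bases each on the gene's strand, with the match in capitals.
Aars, chr8:111033704-111033763, plus strand: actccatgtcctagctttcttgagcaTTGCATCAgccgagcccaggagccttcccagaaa
Aars, chr8:111033812-111033871, plus strand: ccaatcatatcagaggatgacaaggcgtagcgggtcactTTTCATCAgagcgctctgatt
Gars, chr6:55037945-55038004, plus strand: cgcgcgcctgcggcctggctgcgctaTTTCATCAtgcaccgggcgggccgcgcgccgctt
Iars, chr13:49682100-49682159, plus strand: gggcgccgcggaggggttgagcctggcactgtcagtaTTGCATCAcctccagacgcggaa
Tars, chr15:11399640-11399699, minus strand: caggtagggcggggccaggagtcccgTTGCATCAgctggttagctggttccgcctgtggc
Yars, chr4:129189873-129189932, plus strand: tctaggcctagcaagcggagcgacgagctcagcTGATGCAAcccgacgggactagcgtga

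In Yars the core reads along the gene, and in the other 5 windows it lies on the opposite strand and is read as TTGCATCA or TTTCATCA. Of these 5 genes, Gars, Iars and Yars fell by limma, and Aars (log2 fold change -0.11) and Tars (-0.07) did not pass. Among synthetases with a promoter sequence and no core, Farsa, Farsb, Sars, Aars2 and Rars2 fell and the others did not. The match began 30 bases before the start in Gars and 15 before it in Tars, and 4 and 8 bases past it in Yars and Iars. Positions are counted from the transcription start used in the search, which for Yars lies inside the gene span given above, not at its first base. A match in a window is a description of its letters, not evidence of a bound site. No sequence is shown for Cars, Hars, Lars, Mars, Nars, Rars, Vars, Wars, Hars2 and Pars2.

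The mitochondrial synthetases had lower and more widely spread levels than the cytosolic set, and they moved in either direction. Of 16, 2 fell, 3 rose and 11 did not pass, with or without WT replicate 1, against 7.55% and 9.58% of all tested genes lower and higher. The groups stood apart for the same 5 genes, 2 lower and 3 higher, where 8.72% of all tested genes stood apart as higher. The median log2 fold change was -0.0594, and the range of -0.330 to 0.848 was wider than that of the cytosolic set. The number that fell became 1 without WT replicate 3 or 5 or Riok2hKO replicate 3.

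**Figure D2:**
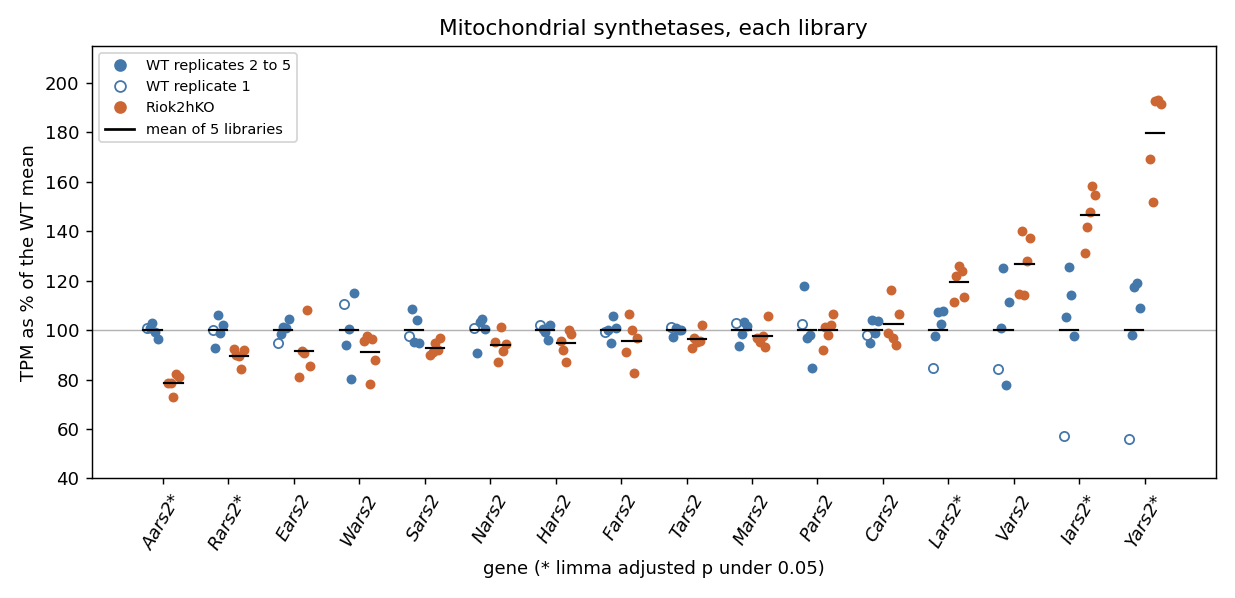
Level of each of the 16 mitochondrial synthetases in each library, as a percentage of that gene's WT mean TPM, ordered by log2 fold change. Symbols are as for the cytosolic set (open blue is WT replicate 1, stars mark an adjusted p under 0.05). Aars2 lies lowest at 78.7% of WT, and Yars2, Iars2 and Lars2 lie above WT in every Riok2hKO library.

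Aars2, the mitochondrial alanine enzyme (chromosome 17, 45503515 to 45520843), fell most of all 36. It read 21.4, 21.4, 21.9, 21.1 and 20.5 TPM in WT and 16.7, 16.7, 15.5, 17.5 and 17.3 TPM in Riok2hKO, with tight and well separated groups (log2 fold change -0.33, SE 0.0449, limma adjusted p = 0.000583). Rars2, the mitochondrial arginine enzyme (chromosome 4, 34614957 to 34660167), read 59.9, 55.4, 63.5, 59.1 and 61.0 TPM in WT and 55.2, 53.8, 53.6, 50.4 and 54.9 TPM in Riok2hKO (log2 fold change -0.15, SE 0.042, limma adjusted p = 0.0256). The Rars2 groups nearly touched, and its call was lost without WT replicate 3 or 5 or Riok2hKO replicate 3 or 4 (adjusted p 0.0523 to 0.0647).

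Yars2, the mitochondrial tyrosine enzyme (chromosome 16, 16302965 to 16309640), rose most of all 36. It read 9.85, 17.2, 20.65, 20.9 and 19.1 TPM in WT and 29.7, 26.6, 33.8, 33.9 and 33.6 TPM in Riok2hKO, 180% of the WT mean. The groups did not overlap, with WT replicate 1 the lowest library (log2 fold change 0.85, 95% interval 0.487 to 1.21, limma adjusted p = 0.00512). Without that library the log2 fold change was 0.67 (SE 0.0796, limma adjusted p = 0.000168), so Yars2 was higher in Riok2hKO with it and without it.

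Iars2, the mitochondrial isoleucine enzyme (chromosome 1, 185286642 to 185329419), read 14.4, 26.6, 31.65, 28.8 and 24.6 TPM in WT and 33.1, 35.7, 37.3, 39.9 and 38.95 TPM in Riok2hKO. WT replicate 1 was again the lowest, and the highest WT library came within 2 TPM of the lowest Riok2hKO library (log2 fold change 0.58, SE 0.161, limma adjusted p = 0.0291). Without WT replicate 1 the log2 fold change was 0.40 (limma adjusted p = 0.00287). The call was lost without WT replicate 5 or any of Riok2hKO replicates 2 to 5 (adjusted p 0.0504 to 0.0685). Iars2 shares 36.8% of its 38-base words with the overlapping gene Rab3gap2, which measured 8.85 ± 0.633 TPM in WT and 9.01 ± 0.647 in Riok2hKO (limma adjusted p = 0.839).

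Lars2, the mitochondrial leucine enzyme (chromosome 9, 123366927 to 123462675), was the most abundant of all 36. It read 531, 613, 672, 643 and 675 TPM in WT and 699, 763, 789, 777 and 711 TPM in Riok2hKO (log2 fold change 0.26, SE 0.061, limma adjusted p = 0.0131). Every Riok2hKO library lay above every WT library, and without WT replicate 1 the log2 fold change was 0.20 (limma adjusted p = 0.00508). The summed TPM of the mitochondrial set, 1017 ± 70.8 in WT and 1144.5 ± 41.0 in Riok2hKO, rested on this gene for most of its difference. Without Lars2 the sums were 390.4 ± 12.5 and 396.5 ± 10.4 TPM. Of the 38-base words of Lars2, 0.596% also occur in other genes, Gm15564 and AA474408 among them. The part of shared reads in its level was not tested.

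The low levels in WT replicate 1 can be set beside base composition. The transcripts of Iars2, Vars and Yars2 each hold a 100-base window of 81% to 83% G and C. Windows of at least 80% are also in Aars, Cars2, Gars and Ears2, which in that library were at -0.13, -0.03, 0.01 and -0.09 log2 units from the other WT libraries. The part of base composition in these values was not tested.

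The other 11 mitochondrial synthetases did not pass. Vars2 was the lowest of all 36 in WT and measured 3.94 ± 0.762 TPM there and 4.99 ± 0.477 in Riok2hKO (limma adjusted p = 0.0801, log2 fold change 0.29). It passed without WT replicate 3 (adjusted p = 0.0329). Ears2, the glutamate enzyme, was at 19.3 ± 0.697 and 17.7 ± 2.01 TPM (log2 fold change -0.13, limma adjusted p = 0.219) and passed without Riok2hKO replicate 4 (adjusted p = 0.0416).

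The enzymes for serine, tryptophan, asparagine and histidine had fold changes between -0.11 and -0.08 on the log2 scale. Sars2 measured 36.7 ± 2.21 TPM in WT and 34.1 ± 1.00 in Riok2hKO, and Wars2 4.93 ± 0.683 and 4.49 ± 0.395. Nars2 measured 13.0 ± 0.721 and 12.2 ± 0.669 TPM, and Hars2, which lies beside Hars in the genome and shares 4.79% of its 38-base words with it, 20.4 ± 0.497 and 19.3 ± 1.08. The limma adjusted p of these 4 ran from 0.155 to 0.457.

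The last 5 differed by less. Tars2, the threonine enzyme, was at 72.9 ± 1.16 and 70.4 ± 2.50 TPM, Fars2, the single-chain phenylalanine enzyme of mitochondria, at 17.9 ± 0.694 and 17.1 ± 1.63, and Mars2, the methionine enzyme, at 34.2 ± 1.40 and 33.4 ± 1.61. Cars2, the cysteine enzyme, was at 33.3 ± 1.30 and 34.1 ± 2.98 TPM, and Pars2, the proline enzyme, at 10.0 ± 1.21 and 10.0 ± 0.537. Cars2 shares 19.0% of its 38-base words with the neighbouring Naxd. For Pars2 the 95% interval of the log2 fold change ran from -0.16 to 0.17. Outside the 36, and chosen after its values were seen, the threonine enzyme paralogue Tarsl2 measured 2.01 ± 0.313 and 2.61 ± 0.453 TPM (limma adjusted p = 0.118).

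**Figure D3:**
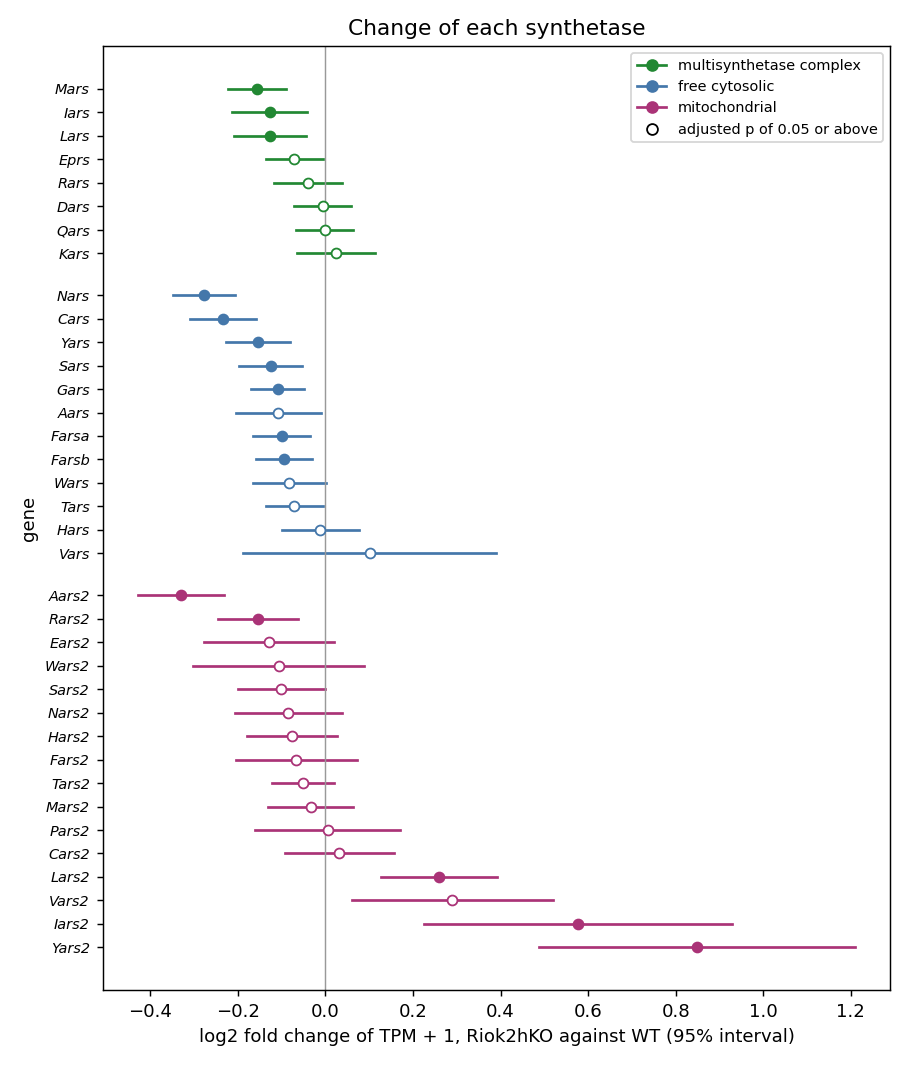
Log2 fold change of TPM + 1 in Riok2hKO against WT for each of the 36 synthetases, with its 95% interval from limma, grouped as members of the multisynthetase complex (green), free cytosolic enzymes (blue) and mitochondrial enzymes (purple). Filled points passed an adjusted p of 0.05. Cytosolic points lie between -0.277 and 0.101, mostly left of 0, and mitochondrial points reach from -0.330 to 0.848.

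Set side by side by amino acid, the log2 fold changes of the cytosolic and the mitochondrial enzyme were both negative in 10 of 16 pairs and both positive in 1 (Vars and Vars2, neither of which passed). In the other 5 the cytosolic value was negative and the mitochondrial one positive. These sign counts use all libraries and include values near 0. Without WT replicate 1 the Vars value was negative (-0.06) and that of Vars2 stayed positive (0.245). Pars2, among the positive mitochondrial values, was at 0.00521 and changed sign in 7 of the 21 alternatives. Eprs stood in 2 pairs, for glutamate and for proline, and Farsa alone stood for the phenylalanine enzyme. Amino acids without a gene in each set had no pair. Tyrosine, isoleucine and leucine had a cytosolic enzyme that fell and a mitochondrial enzyme that rose. The ratio of mean TPM, cytosolic over mitochondrial, was 6.48 in WT and 3.24 in Riok2hKO for Yars and Yars2, and 4.69 and 2.92 for Iars and Iars2. Without WT replicate 1 the WT ratios were 5.78 and 4.31. For alanine it was the mitochondrial enzyme that fell and the cytosolic one that did not pass, with a ratio of 3.37 in WT and 3.97 in Riok2hKO. For asparagine and cysteine, the 2 amino acids whose cytosolic enzymes fell most, the mitochondrial enzymes did not pass, and the ratios were 21.6 and 19.0 for Nars and Nars2 and 2.04 and 1.69 for Cars and Cars2. These ratios are of group means and were not tested.

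**Figure D4:**
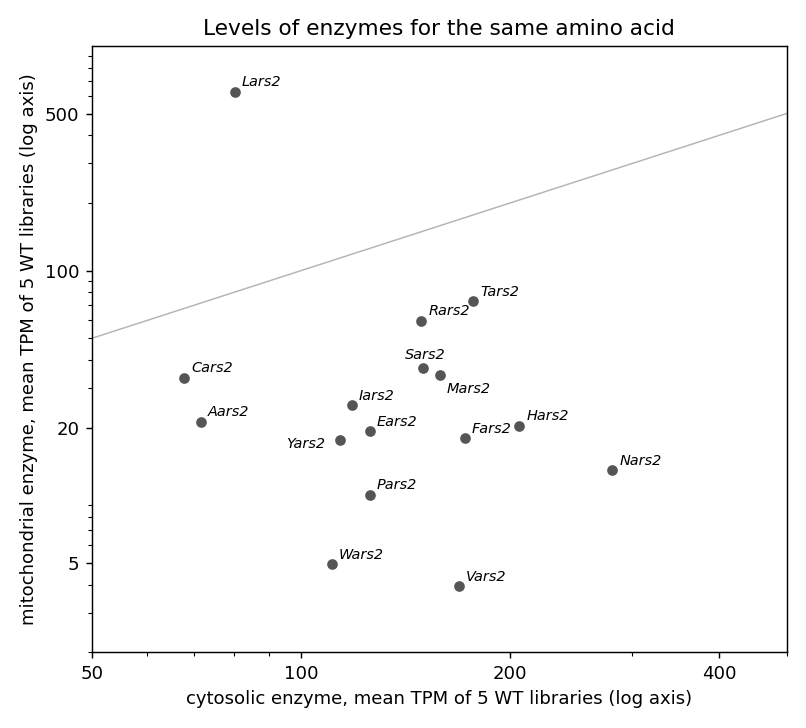
Mean TPM of the 5 WT libraries for the cytosolic enzyme (horizontal, log axis) and the mitochondrial enzyme (vertical, log axis) of the same amino acid, labelled by the mitochondrial gene. The grey line marks equal levels. Lars2 at 627 TPM is the 1 point above the line, and the next mitochondrial enzyme, Tars2, is at 72.9 TPM.

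In WT the cytosolic enzyme was above its mitochondrial partner in every pair but that for leucine, by 2.04 times for cysteine up to 42.8 times for valine (45.1 without WT replicate 1). Mitochondrial means ran from 3.94 TPM (Vars2) and 4.93 TPM (Wars2), whose SDs overlap, to 59.8 TPM (Rars2), 72.9 TPM (Tars2) and 627 TPM (Lars2). Leucine ran the other way, with Lars at 0.128 times Lars2. In order of cytosolic level, Gars, Kars and Nars led in WT, with Kars and Nars closer to each other than the SD of Kars (286 ± 18.8 and 280.2 ± 2.38 TPM), and Hars followed at 206 ± 7.69 TPM.

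Of 34 tested genes that work with the synthetases, 3 fell (8.82%), 0 rose and 31 did not pass, with a median log2 fold change of -0.0361. The share that fell was near the 7.55% of all tested genes, and the count that changed became 7 with quantile normalization or with a covariate for detected genes. Aarsd1, whose protein clears serine wrongly attached to alanine tRNA, fell from 150.1 ± 6.42 to 128 ± 4.18 TPM (limma adjusted p = 0.00159, log2 fold change -0.23, SE 0.0358), a larger change than that of Aars itself. Eefsec, the elongation factor that brings selenocysteine tRNA to the ribosome, fell from 54.6 ± 1.28 to 49.8 ± 1.13 TPM (log2 fold change -0.13, limma adjusted p = 0.0194). Among 7 editing and peptidyl-tRNA release genes 1 fell (Aarsd1), and among 6 genes of selenocysteine charging 1 fell (Eefsec). Of 4 genes of mitochondrial transamidation and formylation 0 changed, and the closest to passing was Qrsl1, at 21.6 ± 1.11 and 19.0 ± 1.42 TPM (limma adjusted p = 0.0603). Of 9 genes of tRNA end maturation, splicing and export 0 changed.

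In the list for sensing of uncharged tRNA, 1 of 5 fell. The share that fell was 7.55% over all tested genes and 15.2% over those averaging 50 TPM or more. Atf4 read 320.4, 319, 297, 308 and 290.0 TPM in WT and 263, 296, 280.3, 269.8 and 289 TPM in Riok2hKO (log2 fold change -0.13, SE 0.0387, limma adjusted p = 0.0343). The groups overlapped, and the call was lost without WT replicates 1, 2 and 4 and Riok2hKO replicates 1, 3 and 4 in turn (adjusted p 0.0565 to 0.0848). Eif2ak4, which encodes GCN2, was at 5.33 ± 0.542 and 5.11 ± 0.427 TPM (limma adjusted p = 0.706). ATF4 is set largely by translation, which mRNA levels do not show.

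Other genes of the ATF4 programme fell beside the synthetases. Of 29 tested, 20 fell, 1 rose and 8 did not pass, with a median log2 fold change of -0.192. With Atf4 and Xpot, which the partner lists also hold, left out, 19 of 27 fell, with a median of -0.254. Over all tested genes 7.55% fell and 9.58% rose, and over those averaging 50 TPM or more 15.2% fell and 8.84% rose. This list too was chosen with earlier results of these libraries known. Asns, which makes the asparagine that Nars attaches, read 196, 185, 212, 179 and 187 TPM in WT and 141, 157, 137, 154 and 147 TPM in Riok2hKO (log2 fold change -0.38, SE 0.0496, limma adjusted p = 0.00044). The enzymes that make the serine used by Sars fell too: Phgdh from 932 ± 18.4 to 759 ± 31.6 TPM, Psat1 from 483.5 ± 8.14 to 423 ± 13.7 TPM and Psph from 172 ± 3.91 to 141 ± 5.75 TPM. For these 3 genes the limma adjusted p ran from 4.97e-05 to 0.00054.

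Cth, which makes the cysteine that Cars attaches, fell from 130.02 ± 11.3 to 94.9 ± 7.69 TPM (log2 fold change -0.45, limma adjusted p = 0.000873). The amino acid transporter Slc7a3 fell from 25.7 ± 1.61 to 15.7 ± 1.17 TPM and the mitochondrial enzyme Pck2 from 44.5 ± 2.17 to 32.4 ± 2.13 TPM. The 1 that rose was Ddit4, an inhibitor of mTORC1 signalling (log2 fold change 0.46, limma adjusted p = 0.0456), and its level in WT replicate 1 lay far below the other WT libraries. Without that library the Ddit4 difference was 0.30 (limma adjusted p = 0.0034), and the call was lost without WT replicates 2, 4 and 5 and any Riok2hKO library in turn (adjusted p 0.0509 to 0.103). The log2 fold changes of Nars and Cars, -0.28 and -0.23, were smaller than those of Asns and Cth, and that difference was not tested.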

How the data were processed

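RNA from 5 WT and 5 Riok2hKO libraries was sequenced by SMART-seq2, which copies whole transcripts and keeps no strand (10 cDNA amplification cycles, 0.2 ng of cDNA and 38-base read pairs, per the labels' protocols). The deposited values are TPM, which the authors made with Bowtie alignments to mm10 transcripts and RSEM estimates, per the labels' protocols. RSEM was version 1.2.8, per the submitters' processing notes, and no version of Bowtie is given in the sources used here. TPM is a share, so a rise of some transcripts lowers others, read depth is unknown, and counting error cannot be given. RSEM divides reads that match several genes by estimation, so values of genes that share sequence are uncertain. The share of 38-base words of a member's transcript (GENCODE vM21) that occur in another gene is given where it is large, and for some members where it is small.

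From 23420 rows, 27 whose symbol had become a date (0.107% to 0.114% of the TPM) were left out. The 10332 genes that reached 1 TPM in 5 or more of the 10 libraries were tested on the log2(TPM + 1) scale for genotype in limma 3.58.1 under R 4.3.3 (lmFit, then eBayes with a mean-variance trend), and p-values were adjusted by Benjamini-Hochberg over all of them. This scale understates changes of low genes. A gene is said to have risen or fallen at an adjusted p under 0.05, and intervals are 95%. Riok2 was also compared by an exact permutation test (scipy 1.17.1). Alternatives covered the pseudocount, the filter, scaling, the variance model, array weights, the number of detected genes, the replicate number as a block and each library left out.

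The members and gene lists were chosen with earlier results of these data known. Every member is named, with each library's value for those that passed and for the 3 most abundant cytosolic ones. From the partner and ATF4 lists, up to 6 members with the smallest p, Atf4, Eif2ak4 and the scaffolds are named. Cth, Qrsl1, Ddit3, Slc6a9, Ddit4, Rab3gap2, Tarsl2 and the library values of Tars, Vars and Asns were added after values were seen. Some genes are not reported here. Coordinates and promoter sequences are from RefSeq (GRCm38.p6, which is mm10), in which 26 of the 36 had a promoter. Figures used Python 3.11.15 and matplotlib 3.10.9.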

Additional observations from a re-analysis of the deposited data

Results flagged for a closer look

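Of 148 groups of 5 libraries (WT and Riok2hKO for 74 genes: the 36 synthetases, Riok2, the scaffolds, Atf4, Eif2ak4, the partner and ATF4 programme genes that passed, and 10 other genes given values), 7 held a library whose gap to the nearest other exceeded Dixon's 95% critical value of 0.71 of the range. Chance flags about 1 in 20 such groups. Partners that did not pass and are not given values were not examined.

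Vars was at 105.84 TPM in WT replicate 1, where the other WT libraries were at 172.88 to 192.43. Ddit4 was at 16.59 TPM in the same library, with the others at 28.63 to 31.57. Kars was high there, at 319.15 TPM against 272.44 to 281.79. Lars was at 76.42 TPM in Riok2hKO replicate 3 against 72.03 to 73.11, and Rars at 154.57 TPM in Riok2hKO replicate 5 against 141.34 to 144.21. Ddit3, the stress factor CHOP, was at 49.25 TPM in WT replicate 3 against 36.18 to 38.40. The glycine transporter gene Slc6a9 was at 4.16 TPM in Riok2hKO replicate 4 against 2.60 to 2.90.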

How the results depend on the processing

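Of the 15 synthetases that passed, 7 passed in all 21 alternatives (Cars, Mars, Nars, Yars, Aars2, Lars2 and Yars2), and no passing synthetase changed sign in any. The cytosolic count of 10 that fell became 6 with no filter on low values, 6 with quantile normalization and 4 with eBayes without a trend, where the count over all synthetases went from 12 to 6; the causes were not tested. Without a trend, Gars (adjusted p = 0.0700), Farsa, Farsb, Iars, Lars, Sars and Iars2 no longer passed. The count of partners that changed, 3, became 7 with quantile normalization, 5 with TPM recomputed without ribosomal protein genes, 7 with a covariate for the number of detected genes and 1 with the replicate block. With each library left out in turn, 1211 to 1749 of all tested genes changed (1770 with all libraries). In the same fits, 6 to 10 synthetases fell and 2 to 4 rose, 5 to 8 cytosolic ones fell and 0 rose, and 1 to 2 mitochondrial ones fell and 2 to 4 rose. Among the other lists, 2 to 4 partners changed and 18 to 20 genes of the ATF4 programme fell, and the Riok2 log2 fold change was -1.06 to -0.965. Same-numbered libraries did not deviate together (correlations of -0.0341 to 0.0679), and differently numbered ones had correlations of -0.128 to 0.105. Such small correlations cannot settle whether the replicate numbers mark a pairing. With the replicate number as a block, 1444 genes changed, among them 7 cytosolic synthetases that fell and 2 mitochondrial ones that fell and 3 that rose. The number of reads behind a TPM is unknown, so depth sets no stated limit.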
